A study of Mus musculus with 6 samples.

Results

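Collagen chains are the secreted or membrane-bound polypeptides that assemble into helical trimers and build the extracellular matrix. The genes were taken by name, as every gene symbol in the count files made of Col, a number, the letter a and a number, and 44 of the 24411 genes in the files met this rule. They were compared between 3 control and 3 Brd9 KO libraries of poly(A)-selected RNA from bone marrow of C57BL/6 mice. BRD9 is the bromodomain subunit of the non-canonical BAF chromatin remodelling complex. The control genotype was CD45.2(+) Brd9fl/fl and the KO genotype was CD45.2(+) Mx1-Cre Brd9fl/fl, so both groups carried the floxed alleles but only the KO group carried Cre. Effects of the recombinase and of the lost gene therefore cannot be told apart. Mx1-Cre is switched on by pIpC, which was given at 20 mg/kg for 3 doses, and marrow was taken 8 weeks later. Mx1-Cre is not restricted to blood cells and can also recombine in stromal cells of the marrow. The sources disagree on the material: the sample labels name lineage-negative cells and recipients of a transplant, the series text names primary mice treated 4 weeks after birth, and the methods of the study name primary mice, 4 months old, and a sort for Lin-c-Kit+ cells. The labels also call the libraries unstranded where the methods name a stranded kit. The study describes biological triplicates, but no label ties a replicate to an animal of its own. If the replicates share animals, the p-values cover only technical spread.

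Fibrillar collagens (types I, II, III, V and XI among them) form the cross-striated fibrils of skin, bone, tendon and cartilage. Types V and XI are minor fibrillar collagens that seed fibrils and set their width, and their chains can join in mixed trimers. Type IV collagen forms the network of basement membranes, and type VI forms beaded filaments around cells. In bone marrow, collagen is made mainly by stromal cells, osteoblasts and the cells of vessels, while blood progenitors touch it through integrins and other receptors.

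Library totals ran from 21151031 to 28500168 expected counts. The targeted gene, Brd9 (chromosome 13, 73937801 to 73960895), stood at 45.9, 49.1 and 52.1 CPM (counts scaled to a common library size after TMM normalization) in the control libraries and at 15.6, 13.5 and 21.0 CPM in the KO libraries. This was a fall of 1.56 ± 0.17 (log2 fold change ± SE) with an adjusted p of 0.00345 (edgeR quasi-likelihood test, Benjamini-Hochberg over all genes tested), and the 2 groups did not overlap (exact permutation test, two-sided p = 0.1, the smallest that 3 against 3 allows). KO replicate 3 stood apart from the other KO libraries on the second principal component. A gene was called at an adjusted p under 0.1. It was tested when it passed edgeR's expression filter, which asks for about 0.405 CPM in 3 libraries. All filter levels in CPM, and the CPM given for 3 counts, use library totals without TMM.

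Collagen mRNA was scarce in every library. All 44 chains together held 13.1, 19.6 and 20.2 TPM (transcript abundance corrected for length) in the control libraries and 25.2, 30.9 and 19.1 TPM in the KO libraries. The group means were 17.6 ± 3.94 TPM in control and 25.1 ± 5.90 TPM in KO (SD, n = 3), and the groups overlapped, since KO replicate 3 lay below control replicates 2 and 3. As a share of all counts, collagen made up 0.00848% ± 0.0013 in control and 0.00962% ± 0.00119 in KO (SD, n = 3).

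Only 3 chains reached 1 TPM in every control library: Col5a1, Col11a2 and Col1a2. Col1a1 was the fourth most abundant by its mean, at 1.57 ± 0.775 TPM (SD, n = 3), and missed that level in control replicate 1. In the KO libraries 4 chains reached 1 TPM in every library. At a lower level of 0.1 TPM, 12 chains passed in every control library and 19 in every KO library. A count was present in every control library for 27 chains and in every KO library for 29. Col4a4, a basement membrane chain, and Col6a6, a type VI chain, were at 0 in all 6 libraries, where 3 counts correspond to 0.105 to 0.142 CPM.

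The order of the abundant chains differed between the groups. Col5a1 was the most abundant chain per length in all 3 control libraries and Col11a2 in all 3 KO libraries. Col5a1 held 32.6%, 28.3% and 28.7% of the collagen TPM in the control libraries and 7.83%, 7.18% and 9.60% in the KO libraries. Col11a2 held 19.1%, 21.4% and 18.6% in control and 26.0%, 23.0% and 38.9% in KO. Neither set of shares overlapped between the groups.

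**Figure D1:**
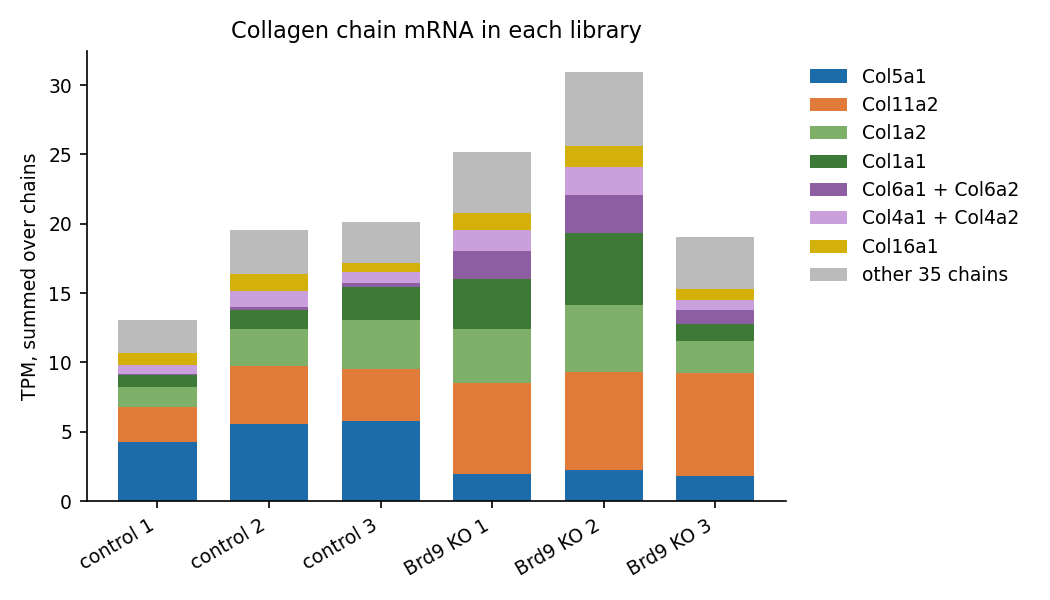
Stacked bars of the TPM of the 44 collagen chains in each of the 6 libraries, with 9 chains in colour (4 of them drawn in 2 pairs) and the other 35 summed in grey. Col5a1 forms the lowest and thickest part in the 3 control libraries, and Col11a2 the thickest in the 3 KO libraries.

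Of the 44 chains, 21 passed the expression filter and were tested. Of these, 7 rose in the KO libraries (Col3a1, Col5a2, Col6a1, Col6a2, Col11a1, Col11a2 and Col28a1), 2 fell (Col5a1 and Col5a3), and 12 did not pass the test. The share called higher was 33.3% of the tested chains, where 9.19% of the 12953 genes tested were called higher. The share called lower was 9.52%, where 6.25% of all genes tested were called lower. The median log2 fold change was 0.83 over the 21 chains and 0.02 over all genes tested, with 17 chains above 0 and 4 below. In bulk samples, fewer cells of a type and less RNA per cell cannot be told apart.

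A filter on low counts admits a chain that is nearly silent in control only if it is higher in KO. Of the 7 chains that rose, Col11a2 alone was over the filter's level in every control library. The 4 chains with no control library over it (Col3a1, Col5a2, Col6a2 and Col11a1) were all called higher, and so were 81.4% of the 113 genes of this kind. The 13 tested chains with every control library over that level comprised 1 called higher, 2 called lower and 10 not called. Without the filter, 10 chains were called higher, the added ones being Col6a3, Col8a1 and Col12a1, where 6.80% of all genes in that fit were called higher.

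**Figure D2:**
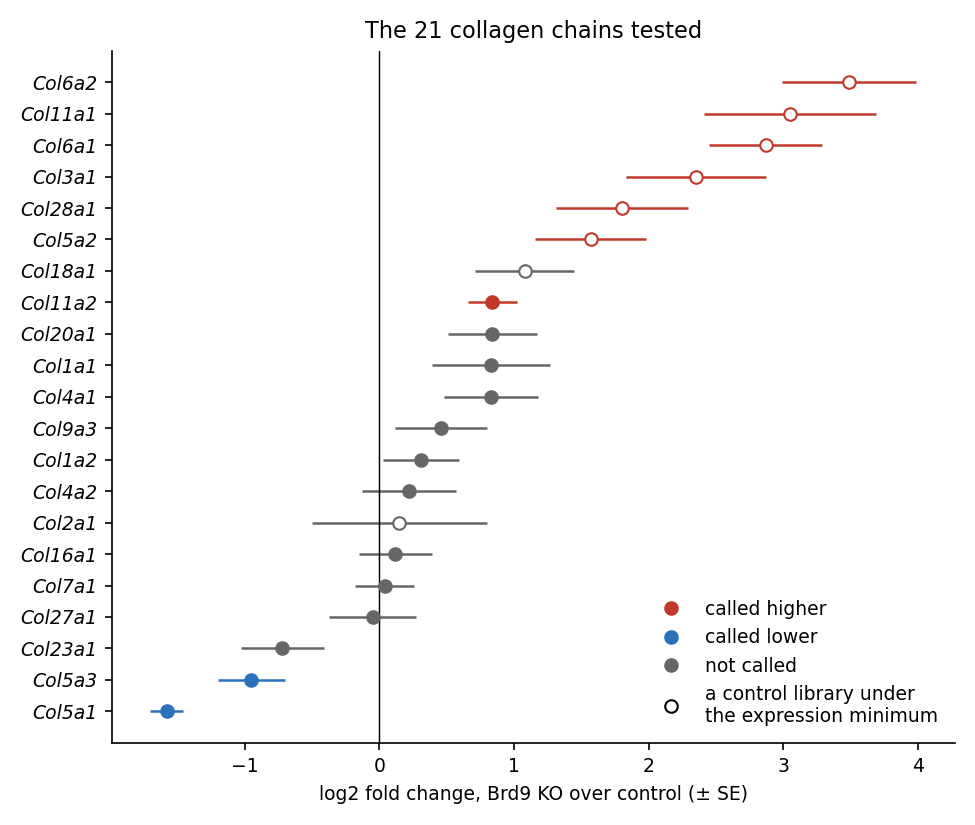
Log2 fold change of KO over control with its SE for the 21 tested chains, ordered by size. Filled points had all 3 control libraries over the filter's level and open points did not. The 7 chains called higher (red) lie between 0.84 and 3.49 and all but Col11a2 are open, and the 2 called lower (blue), Col5a1 and Col5a3, lie at -1.58 and -0.95.

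Col5a1 encodes the main chain of type V collagen, which is present in most trimers of that type and seeds the assembly of type I fibrils. The gene lies on chromosome 2 at 27886381 to 28039510 in GRCm38.p6 (RefSeq). It stood at 32.7, 34.0 and 37.5 CPM in the control libraries and at 11.0, 11.3 and 12.5 CPM in the KO libraries. Every KO library was far below every control library, and the spread within each group was small. Col5a1 fell by 1.58 on the log2 scale (SE 0.12, adjusted p = 0.00122 by edgeR's quasi-likelihood test). On the length-corrected scale it went from 5.20 ± 0.811 to 2.01 ± 0.198 TPM (SD, n = 3). Genes antisense to Col5a1 overlap 212 of its 8490 exon bases in the GENCODE annotation, and reads from these bases could not be assigned to a strand if the libraries were unstranded.

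The sequence just before Col5a1 is shown because this chain was the most abundant in control and moved opposite to most chains called. It runs over chr2:27886175-27886380 on the plus strand of GRCm38.p6 (RefSeq promoter table), is cut at the outermost annotated start, and has both matches to the GC box (GGGCGG or, on the other strand, CCGCCC) in capitals.
Col5a1: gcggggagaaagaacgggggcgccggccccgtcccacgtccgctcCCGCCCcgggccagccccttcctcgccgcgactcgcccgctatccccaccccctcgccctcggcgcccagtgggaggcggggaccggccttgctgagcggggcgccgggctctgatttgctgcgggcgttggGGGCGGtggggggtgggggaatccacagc
The full promoter window of 250 bases runs on to 27886424, past the RefSeq start of the gene at 27886381. In that window 76.4% of bases were G or C, above 97.0% of the 32851 such windows of all genes (median 52.4%). A GC box was present in 32.7% of those windows. Neither CCAAT (33.8% of all windows, both strands) nor TATAAA (12.4%) occurred in that of Col5a1.

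The other type V chains went in opposite directions, Col5a2 up and Col5a3 down. Col5a2 supplies the second chain of the common type V trimer. It had 11, 4 and 9 counts in the control libraries and 30, 20 and 17 in the KO libraries, so every KO library was above every control library at a low level. Col5a2 rose by 1.57 ± 0.41 (log2 ± SE, edgeR adjusted p = 0.0584). Per length, there was 93.9 ± 39.7 times as much Col5a1 as Col5a2 in control and 10.5 ± 3.01 times as much in KO (SD, n = 3). The control ratio was 61.0, 138 and 82.6 by library and is imprecise, since it rests on 11, 4 and 9 counts of Col5a2.

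Col5a3, the third type V chain, measured 2.69, 3.46 and 3.20 CPM in the controls against 1.92, 1.67 and 1.21 CPM in the KO libraries. The groups did not overlap, and Col5a3 fell by 0.95 on the log2 scale (SE 0.25, edgeR adjusted p = 0.0613). This call and that of Col5a2 were each lost when control replicate 2 or 3 or KO replicate 1 or 2 was left out, at edgeR adjusted p of 0.128 to 0.16 for Col5a3 and 0.105 to 0.199 for Col5a2, with the direction kept.

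Col11a2 encodes a type XI chain known from cartilage, and was the only chain over 1 TPM in every control library that was called higher. It measured 12.6, 17.0 and 16.0 CPM in the controls against 24.1, 23.9 and 33.4 CPM in the KO libraries. The lowest KO library lay above the highest control library. Col11a2 rose by 0.84 ± 0.18 (log2 ± SE, edgeR adjusted p = 0.0329), from 3.48 ± 0.875 to 7.02 ± 0.437 TPM (SD, n = 3).

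In RefSeq, Col11a2 (chromosome 17, 34038919 to 34066684) starts 515 bases after the end of Rxrb, a nuclear receptor gene on the same strand. Rxrb was much more abundant, at 64.9 ± 1.91 TPM in control and 73.2 ± 7.70 TPM in KO (SD, n = 3), and was not called (log2 fold change -0.04 ± 0.10 SE, edgeR adjusted p = 0.829). Reads running on from Rxrb into Col11a2 were not tested for. The ratio of Col11a2 to Rxrb in TPM was 0.0397, 0.0628 and 0.0574 in the control libraries and 0.086, 0.09 and 0.115 in the KO libraries, without overlap.

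Col11a1, the other type XI chain with Col11a2 in cartilage trimers, had 0, 2 and 3 counts in control and 15, 18 and 9 in KO. It rose by 3.05 ± 0.64 (log2 ± SE, edgeR adjusted p = 0.0308), and all control libraries were at or under the floor of 3 counts. Without KO replicate 1 its fold change was 3.00 and its edgeR adjusted p 0.104. Col2a1, whose product joins both in cartilage, had 3, 10 and 13 counts in control and 3, 12 and 12 in KO, with a log2 fold change of 0.15 ± 0.65 (edgeR adjusted p = 0.902). The chondrocyte markers Matn3 and Hapln1 were at 0 in every library, and the summed level of 6 chondrocyte markers was 0.294 to 0.590 CPM in control and 0.241 to 0.614 CPM in KO.

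Type VI collagen held the called chain with the largest fold change, Col6a2. Col6a1 and Col6a2 encode the first and second chains of its trimer and lie 85.2 kilobases apart on chromosome 10. Col6a1 measured 0.151, 0.422 and 0.515 CPM in the controls against 2.86, 3.16 and 1.98 CPM in the KO libraries. Col6a2 measured 0.114, 0.253 and 0.184 CPM in the controls against 2.09, 3.02 and 1.11 CPM in the KO libraries. Both were low in every control library and higher in every KO library.

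Col6a1 rose by 2.87 ± 0.42 (log2 ± SE, edgeR adjusted p = 0.00893) and Col6a2 by 3.49 ± 0.50 (edgeR adjusted p = 0.0082). Col6a3, the third chain of the classical trimer, was not tested. It had 1, 1 and 3 counts in control and 8, 17 and 7 in KO, so every KO library was above every control library. Col6a4 and Col6a5 had at most 2 counts in any library.

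The sequences before Col6a1 and Col6a2 are shown because these neighbouring genes rose together. Col6a1 is given over chr10:76726169-76726294 and Col6a2 over chr10:76623631-76623880, both on the minus strand of GRCm38.p6 (RefSeq promoter table) and both cut at the outermost annotated start, with GC boxes in capitals.
Col6a1: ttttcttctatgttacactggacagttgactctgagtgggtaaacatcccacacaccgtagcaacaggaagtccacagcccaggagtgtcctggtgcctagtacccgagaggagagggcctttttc
Col6a2: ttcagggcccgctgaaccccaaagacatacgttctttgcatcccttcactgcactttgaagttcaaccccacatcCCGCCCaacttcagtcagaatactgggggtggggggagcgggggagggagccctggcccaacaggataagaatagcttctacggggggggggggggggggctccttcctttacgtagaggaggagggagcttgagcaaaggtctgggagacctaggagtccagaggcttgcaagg
The window of Col6a2 held 1 GC box, 175 bases before the start, and the full window of Col6a1 held none. CCAAT and TATAAA occurred in neither.

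Col3a1 encodes the type III chain, typical of reticular fibres such as those of marrow. It had 7, 5 and 1 counts in control and 18, 26 and 20 in KO. Col3a1 rose by 2.35 ± 0.52 (log2 ± SE, edgeR adjusted p = 0.0354), and its edgeR adjusted p was 0.103 without control replicate 2 and 0.101 without KO replicate 2. It lies on chromosome 1 at 45311538 to 45349706 in GRCm38.p6, 24.6 kilobases from Col5a2 (45374331 to 45503282), which also rose.

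Col28a1, a type VI-like chain described in peripheral nerve, had 13, 2 and 11 counts in control and 34, 30 and 21 in KO. The groups did not overlap, and it rose by 1.80 ± 0.49 (log2 ± SE, edgeR adjusted p = 0.064). Its call was lost without control replicate 2 or 3 or KO replicate 1 or 2, at edgeR adjusted p of 0.108 to 0.188. Sox10, a Schwann cell regulator, was at 0 in every library.

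**Figure D3:**
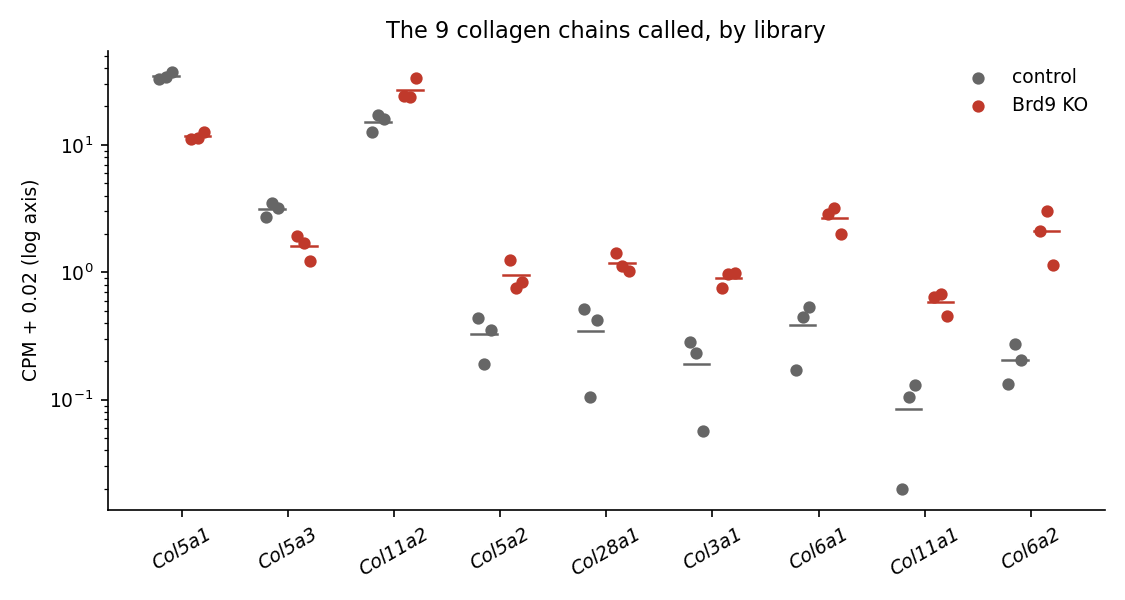
CPM of the 9 called chains in each library on a log axis, with 0.02 CPM added so that 0 can be drawn, control in grey and KO in red, and a bar at the mean of each group. No group overlaps the other for any of these chains. Col5a1 and Col11a2 sit above 10 CPM in all 6 libraries, while 6 of the 7 chains called higher sit at or under 0.515 CPM in every control library.

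The type I collagen chains, the main collagens of bone and tendon, were not called. Col1a1 measured 3.86, 4.60 and 8.65 CPM in the controls against 11.1, 14.5 and 4.77 CPM in the KO libraries. KO replicate 3 fell within the control range while the other KO libraries lay above it. The log2 fold change was 0.83 ± 0.44 (edgeR adjusted p = 0.258), and without KO replicate 3 it was 1.16 (edgeR adjusted p = 0.0438).

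Col1a2 measured 6.66, 9.78 and 13.7 CPM in the controls against 13.0, 14.8 and 9.45 CPM in the KO libraries. Its log2 fold change was 0.31 ± 0.28 (edgeR adjusted p = 0.506), and the groups overlapped. The TPM ratio of Col1a1 to Col1a2 was 0.616 ± 0.0897 in control and 0.854 ± 0.268 in KO (SD, n = 3), where the mature type I trimer holds more of the first chain than of the second. Col16a1, a fibril-associated chain and the fifth most abundant in control, measured 4.24, 4.51 and 2.61 CPM in the controls against 4.34, 4.69 and 3.28 CPM in the KO libraries, with a log2 fold change of 0.12 ± 0.27 (edgeR adjusted p = 0.799).

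The type IV chains Col4a1 and Col4a2 form the common basement membrane trimer. Col4a1 measured 1.14, 2.07 and 2.17 CPM in the controls against 3.31, 4.15 and 2.03 CPM in the KO libraries, with a log2 fold change of 0.83 ± 0.35 (edgeR adjusted p = 0.178). Col4a2 measured 2.31, 3.37 and 2.02 CPM in the controls against 3.27, 3.93 and 1.69 CPM in the KO libraries, with a log2 fold change of 0.22 ± 0.35 (edgeR adjusted p = 0.716). In both genes KO replicate 3 was the lowest KO library and lay within the control range or below it. Col4a3 to Col4a6, the chains of specialised membranes such as that of the kidney, had at most 10 counts in any library.

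Of the other chains tested, Col18a1, which carries endostatin, and Col20a1 were above every control library in all 3 KO libraries without passing the test, at log2 fold changes of 1.08 ± 0.37 (edgeR adjusted p = 0.114) and 0.84 ± 0.33 (edgeR adjusted p = 0.152). Col23a1, a transmembrane chain, was below every control library in all 3 KO libraries, at -0.72 ± 0.31 (edgeR adjusted p = 0.175). Col7a1, the anchoring fibril chain of skin, averaged 2.58 ± 0.221 CPM in the controls and 2.67 ± 0.449 CPM in the KO libraries (SD, n = 3). Counting the called chains too, 9 of the 21 tested chains had all KO libraries above all control libraries, where 17.2% of all genes tested did. These 9 include Col3a1, Col5a2, Col6a2 and Col11a1, which had no control library over the filter's level and were admitted only through their KO libraries. Among the 13 chains with every control library over that level, only Col11a2 and Col20a1 were wholly above. The KO libraries were wholly below in 3, where 16.3% of all genes tested were.

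By class, the fibrillar chains were tested most often, 10 of 11, with 4 higher and 2 lower (9.19% and 6.25% over all genes tested). Of the 8 beaded filament and anchoring chains 4 were tested and 3 were higher. Of the 9 network chains 2 were tested, of the 9 fibril-associated chains 3, and of the 7 transmembrane and other chains 2, and none of these 7 tested chains was called. The beaded filament and anchoring class held 0.65 ± 0.151 TPM in control and 2.83 ± 0.971 TPM in KO (SD, n = 3), and the fibrillar class 13.8 ± 3.44 TPM in control and 17.3 ± 3.45 TPM in KO. The 23 untested chains had at most 35 counts in any library, and 4 of them (Col6a3, Col8a1, Col12a1 and Col22a1) were higher in every KO library than in any control library, as were 7.78% of the 4009 untested genes with a count. Col22a1 had 1, 2 and 2 counts in control and 7, 3 and 2 in KO, so it was higher in KO replicate 3 only through library scaling.

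The enzymes and chaperones that fold, trim and crosslink collagen were read from a list of 32 genes. Of the 26 tested, 6 rose (Adamts2, Adamts14, Lox, Pcolce, Plod2 and Serpinh1), 1 fell (P4ha1), and 19 did not pass the test, where 9.19% of all genes tested were called higher and 6.25% lower. Of the 6 that rose, 3 did not have every control library over the filter's level. The median log2 fold change was 0.26. Pcolce, which speeds the removal of the procollagen tail, had 5, 4 and 9 counts in control and 35, 38 and 26 in KO, and rose by 2.52 ± 0.34 (log2 ± SE, edgeR adjusted p = 0.00731). Lox, the crosslinking oxidase, had 5, 3 and 5 counts in control and 23, 36 and 13 in KO, and rose by 2.50 ± 0.43 (edgeR adjusted p = 0.0155).

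Adamts14, a procollagen protease, rose by 1.41 ± 0.28 (log2 ± SE, edgeR adjusted p = 0.025) and Plod2, a lysyl hydroxylase, by 1.04 ± 0.21 (edgeR adjusted p = 0.0261). Without KO replicate 1 neither call held, at edgeR adjusted p of 0.104 and 0.11. P4ha1, a catalytic subunit of prolyl 4-hydroxylase, measured 33.8, 39.9 and 30.5 CPM in the controls against 26.6, 27.3 and 25.8 CPM in the KO libraries, a fall of 0.39 on the log2 scale (SE 0.12, edgeR adjusted p = 0.0963). That call was lost under 13 of the 18 alternatives, among them the removal of any library but KO replicate 3 (edgeR adjusted p 0.109 to 0.25). Serpinh1 lost its call when control replicate 2 or KO replicate 1 or 2 was left out (edgeR adjusted p 0.121 to 0.14), and Adamts2 when any control library or KO replicate 2 was (0.11 to 0.15). P4ha1, Serpinh1 and Adamts2 are named outside the rule for named genes, after their values were seen, because the list had few calls.

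Of 20 genes for collagen receptors and breakdown, 17 were tested. Of these, 4 rose (Ddr2, Gp6, Mmp13 and Timp3), 1 fell (Mmp14), and 12 did not pass the test, beside the same 9.19% higher and 6.25% lower over all genes tested. For 2 of the 4 that rose, not every control library was over the filter's level. The median log2 fold change over the 17 was 0.53. Mmp14, the membrane-bound collagenase that also activates Mmp2, measured 31.8, 30.2 and 33.3 CPM in the controls against 11.0, 10.8 and 8.78 CPM in the KO libraries. It fell by 1.64 on the log2 scale (SE 0.13, edgeR adjusted p = 0.00122), and no KO library overlapped the controls.

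Mmp13, a secreted collagenase of bone, measured 0.341, 0.590 and 0.294 CPM in the controls against 2.25, 3.71 and 4.63 CPM in the KO libraries, a rise of 3.11 ± 0.40 (log2 ± SE, edgeR adjusted p = 0.00578). Ddr2, a collagen receptor kinase of mesenchymal cells, had 3, 1 and 2 counts in control and 25, 19 and 15 in KO, a rise of 3.31 ± 0.46 (edgeR adjusted p = 0.00779). Timp3, a matrix-bound inhibitor of these proteases, measured 48.7, 34.5 and 31.7 CPM in the controls against 124, 116 and 75.9 CPM in the KO libraries, a rise of 1.46 ± 0.23 (edgeR adjusted p = 0.0114). Gp6, the collagen receptor of platelets, rose by 1.49 ± 0.32 (edgeR adjusted p = 0.0319) and is named after its values were seen. Its call was lost when control replicate 2 (edgeR adjusted p 0.104) or control replicate 3 (0.109) was left out. The summed megakaryocyte markers were 1575 to 2653 CPM in control and 3416 to 4588 CPM in KO, and their part in the change of Gp6 was not tested.

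The matrix proteins that bind collagen gave the largest share of calls. Of 35 genes, 23 were tested, 13 rose, 1 fell and 9 did not pass the test, against 9.19% called higher and 6.25% called lower over all genes tested. The median log2 fold change over the 23 was 1.26. Among the 13, 7 did not have every control library over the filter's level. The 13 were Bgn, Comp, Dcn, Fbln1, Fbln5, Fbn1, Hspg2, Lama5, Lamc1, Nid1, Prelp, Sparc and Thbs2, of which all but Bgn, Lama5, Nid1 and Sparc are named after their values were seen. The least stable were Comp, whose call was lost under 9 of 16 alternatives, and Fbn1, lost under 8 of 16. Lama5, a laminin chain of vessel basement membranes, measured 2.80, 6.07 and 4.42 CPM in the controls against 16.4, 16.8 and 14.3 CPM in the KO libraries, a rise of 1.84 ± 0.27 (log2 ± SE, edgeR adjusted p = 0.00877). Nid1, which links laminin to type IV collagen, had 5, 4 and 3 counts in control and 29, 52 and 18 in KO, a rise of 3.05 ± 0.45 (edgeR adjusted p = 0.00897).

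Sparc, a collagen-binding glycoprotein, rose by 1.80 ± 0.28 (log2 ± SE, edgeR adjusted p = 0.0114) and Bgn, a small proteoglycan on fibrils, by 1.73 ± 0.28 (edgeR adjusted p = 0.0135). Lamb1, a laminin chain and the 1 gene of this list that fell, measured 2.88, 2.28 and 3.50 CPM in the controls against 0.982, 1.02 and 0.723 CPM in the KO libraries, a fall of 1.66 on the log2 scale (SE 0.28, edgeR adjusted p = 0.0146). It is named after its values were seen.

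**Figure D4:**
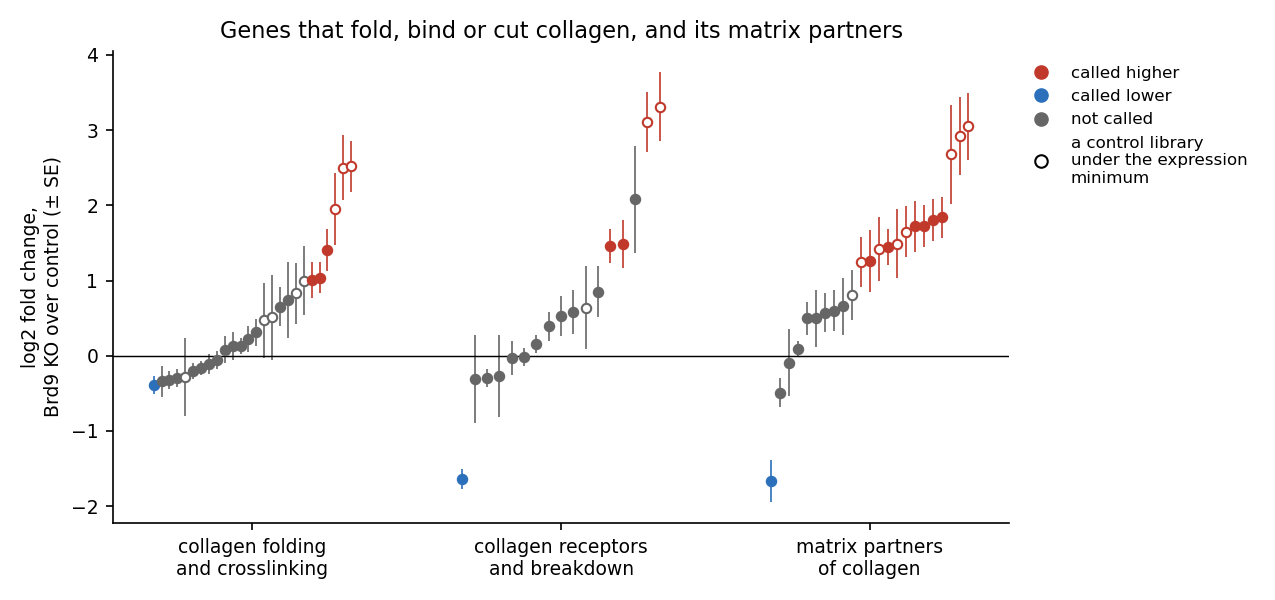
Log2 fold change of KO over control with its SE for the tested genes of 3 lists, 26 that fold or crosslink collagen, 17 receptors and breakdown genes and 23 matrix partners. Red points were called higher, blue lower and grey not called, and open points had a control library under the filter's level. The matrix partners hold 13 red points, and the blue points P4ha1, Mmp14 and Lamb1 stand at -0.39, -1.64 and -1.66.

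Marker genes of other marrow cell types were summed by list, and the members of a list did not always move together. The summed level of 11 mesenchymal stroma markers was 43.1 to 58.3 CPM in control and 145 to 167 CPM in KO, without overlap. Dpt was at 0 in every control library, and Cxcl12, which made up 37.7% of the sum, averaged 11.1 ± 2.74 CPM in the controls and 65.7 ± 12.0 CPM in the KO libraries (SD, n = 3). Endothelial markers summed to 134 to 151 CPM in control and 187 to 221 CPM in KO, of which Pecam1 made up 83.7%. In that list Cdh5, Pecam1, Kdr, Cldn5, Stab2 and Flt4 were called higher. Tek, Emcn, Flt1 and Plvap were not called, and the KO means of Emcn and Flt1 were 80.0% and 85.5% of control. Smooth muscle and pericyte markers summed to 1.18 to 1.25 CPM in control and 1.88 to 2.45 CPM in KO. Of the members tested, Notch3 rose by 2.06 ± 0.35 (log2 ± SE, edgeR adjusted p = 0.0148) and Mcam was not called. Acta2, which was not tested, had 8, 8 and 7 counts in control and 3, 2 and 6 in KO.

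Osteoblast and osteocyte markers summed to 67.5 to 83.0 CPM in control and 82.3 to 86.4 CPM in KO, with Runx2 at 76.0% of the sum and Sost at 0 in every library. Runx2 was not called (log2 fold change -0.11 ± 0.13 SE, edgeR adjusted p = 0.593). Bglap (0.37 ± 0.48, edgeR adjusted p = 0.645), Bglap2 (-0.18 ± 0.39, 0.789) and Alpl (0.86 ± 0.33, 0.144) were not called either. Ibsp rose by 2.47 ± 0.26 (edgeR adjusted p = 0.00328), Sp7 by 2.55 ± 0.51 (0.027) and Spp1 by 1.27 ± 0.26 (0.0286), each without overlap between the groups. Macrophage markers summed to 33.3 to 50.1 CPM in control and 66.6 to 94.9 CPM in KO, and osteoclast markers, of which Acp5 made up 98.8%, to 28.5 to 40.0 CPM in control and 41.0 to 67.0 CPM in KO. Schwann cell markers, of which Mbp made up 90.2%, summed to 83.3 to 92.0 CPM in control and 90.8 to 106 CPM in KO. Except for the osteoblast and Schwann cell lists, in which the groups overlapped, each of these sums was higher in every KO library than in any control library. The part of any cell type in the collagen changes was not tested.

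Among the blood cell lists, eosinophil markers, of which Prg2 made up 89.1%, summed to 1722 to 2279 CPM in control and 3712 to 7218 CPM in KO, the highest value being KO replicate 3. Epx, an eosinophil granule peroxidase in that list, went the other way, with a fall of 1.54 on the log2 scale (SE 0.17, edgeR adjusted p = 0.00345), and 5 of the 6 markers rose. The mast cell and basophil markers summed to 1027 to 1355 CPM in control and 2073 to 2787 CPM in KO. Progenitor markers, of which Mpo made up 85.7%, summed to 10795 to 12210 CPM in control and 6434 to 6666 CPM in KO. In that list Mpo fell by 0.98 on the log2 scale (SE 0.12, edgeR adjusted p = 0.00574) and Klf1 by 0.74 (SE 0.10, edgeR adjusted p = 0.00791). Ptprc rose by 0.47 ± 0.12 (edgeR adjusted p = 0.0527), and Kit, Cd34, Flt3, Spi1 and Gata1 were not called. Kit, which encodes the c-Kit of the sort described in the methods, and Cd34, a marker of stem and early progenitor cells, were present in every library, Kit at 221 ± 13.4 CPM in control and 238 ± 51.4 CPM in KO and Cd34 at 316 ± 50.0 CPM and 352 ± 53.5 CPM (SD, n = 3).

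**Figure D5:**
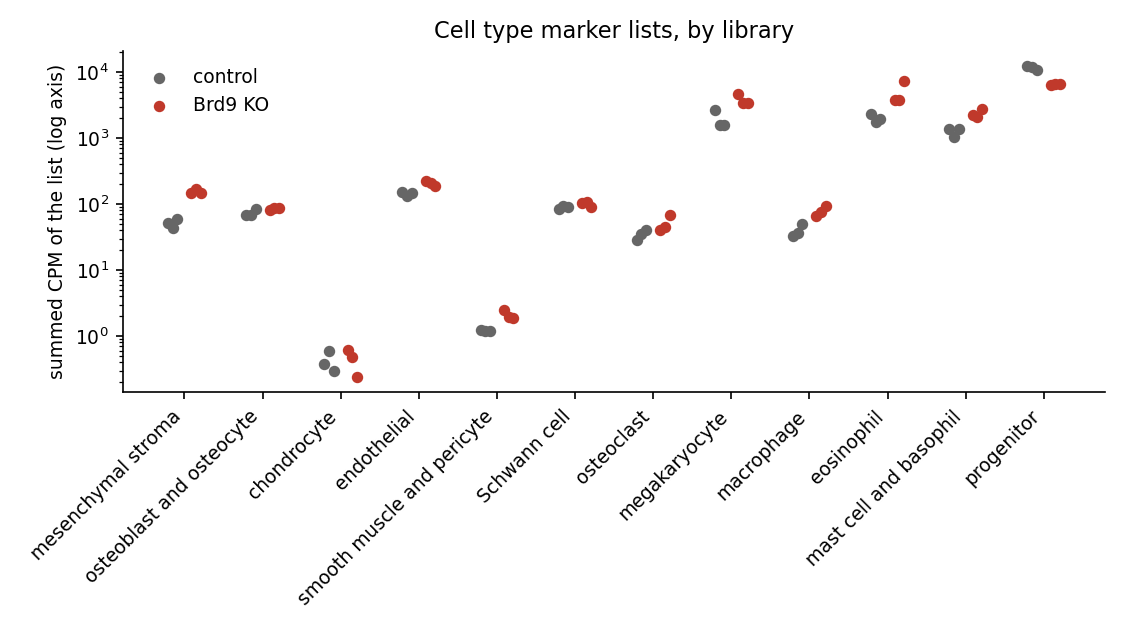
Summed CPM of 12 lists of cell type markers in each library on a log axis, control in grey and KO in red. The stromal sum is 43.1 to 58.3 CPM in control and 145 to 167 CPM in KO, and the chondrocyte sum stays under 1 CPM in all 6 libraries.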

How the data were processed

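Gene-level RNA-seq files of 6 libraries were used, 3 control and 3 Brd9 KO. Per the methods of the study, the authors mapped reads to mm10 with STAR and RSEM in an nf-core pipeline and tested genes with DESeq2 with weighting of hypotheses, a weighting not run here. The deposited RSEM expected counts (estimated read counts per gene) and TPM, as computed by the authors, were taken as they stand. The expected counts were rounded to whole numbers, and those of all 44 chains were whole to within 0.005.

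Groups came from the labels. Counts were filtered with filterByExpr, scaled by TMM and tested with edgeR 4.0.16 (glmQLFit and glmQLFTest, two-sided) in R 4.3.3. Benjamini-Hochberg adjustment covered 12953 genes. The biological coefficient of variation was 0.175. Alternatives covered other scalings, filters, tools (DESeq2 1.42.0, limma 3.58.1), TPM scales, thresholds, a replicate block and each library left out. The chains, the lists of partner genes and markers, and the tests were chosen with earlier results of these data known. The rule for named genes took every called chain, the 6 chains highest in control TPM, the 4 called genes of smallest p in each partner list, and Brd9. Other chains named with values fall outside this rule, among them Col2a1, Col4a1, Col4a2, Col7a1, Col18a1, Col20a1 and Col23a1. Library totals bound the precision: 3 counts in a library equal 0.105 to 0.142 CPM, a floor for counting error only. Positions come from RefSeq (GRCm38.p6) and exon overlaps from GENCODE. Of the 44 chains, 35 had an entry in the promoter table.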

Additional observations from a re-analysis of the deposited data

How the results depend on the processing

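Brd9, Col5a1 and Col11a2 kept their calls under all 18 alternatives, and Col6a1 and Col6a2 under all 17 that gave a value. The calls of Col3a1 and Col11a1 were each lost under 2 of 16 alternatives, that of Col28a1 under 4 of 16, of Col5a2 under 5 of 16 and of Col5a3 under 7 of 18. Against 7 chains called higher and 2 lower, DESeq2 gave 10 higher and 2 lower. The chains it added were Col6a3, Col8a1 and Col12a1 (DESeq2 adjusted p 0.0491 to 0.0641). A minimum of 1 CPM in 3 libraries gave 3 higher (Col6a1, Col6a2 and Col11a2). It removed Col3a1, Col5a2, Col11a1 and Col28a1 from the test. A minimum of 0.5 CPM in every control library gave 1 higher (Col11a2), since it removes the chains that are rare in control. The 3 fits on log2 TPM (1 or 0.1 added, and 1 added with no filter) and an adjusted p under 0.05 each gave 1 lower. Leaving out 1 library gave 4 to 11 chains higher (11 without KO replicate 3, 4 without control replicate 2, KO replicate 1 or KO replicate 2) and 1 to 3 lower. Without KO replicate 3, Col1a1, Col4a1, Col8a1 and Col18a1 were also called higher and Col23a1 lower. Col16a1 ran from -0.09 (without control replicate 3, its 1 change of sign) to 0.26 with a library left out, and was never called. Chains expressed in every control library numbered 3 at 1 TPM, 5 at 0.5 TPM, 12 at 0.1 TPM and 0 at 5 TPM, and 3 to 4 with a control library left out.

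For folding and crosslinking genes, the minimum of 0.5 CPM in every control library gave 3 higher, and leaving out a library gave 3 to 9 higher and 0 to 2 lower. Their 1 lower call, P4ha1, was absent (0 lower) with library totals alone, with no filter, with the 0.5 CPM minimum, in limma-voom, the robust fit and the 3 TPM fits, at an adjusted p under 0.05 and with a fold over 1.5, and DESeq2 gave 3 lower. For receptors and breakdown genes, the 0.5 CPM minimum gave 2 higher, and leaving out a library gave 3 to 5 higher and 1 to 4 lower. For matrix partners, the 1 CPM minimum gave 7 higher and the 0.5 CPM minimum 5, leaving out a library gave 8 to 16 higher and 1 lower in each case, and DESeq2 gave 2 lower.

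Over all genes, 1190 were higher and 809 lower. An adjusted p under 0.05 gave 672 higher and 343 lower, library totals alone 1402 higher and 489 lower, and a fold over 1.5 348 lower. DESeq2 gave 1252 lower, and the fits on log2 TPM gave 224 (1 added), 215 (0.1 added) and 202 (1 added, no filter) lower. Leaving out a library gave 462 to 2141 higher and 179 to 2009 lower, the highest counts without KO replicate 3. Library totals alone put the median log2 fold change of all genes at 0.10 against 0.02 with TMM. Beyond what each filter or threshold removes by construction, the cause was not tested. Deviations of samples of the same replicate number had correlations of -0.0887, 0.469 and 0.0203. Samples of different number were not compared in this way, so whether the numbers pair the samples was not tested. The replicate block gave the same counts of 7 higher and 2 lower chains, 2 lower matrix partners, and 1285 higher and 792 lower genes. Depth limits the rare chains most, since 3 counts equal 0.105 CPM or more in every library.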
